A study of Mus musculus with 2 samples.

Results

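The C-type lectin receptors Clec4d, Clec4e, Clec4n, Clec7a, Clec5a and Clec4a2 and the trigger receptor Trem1 were followed in GR1+ cells of mouse 4T1 tumors. These 7 genes were picked by name, with earlier results of these data known, and no threshold on their values was used. Of the 32285 listed genes, 6 were members, and Clec7a was not analysed here. The GR1 antibody binds both Ly6G and Ly6C, and the beads therefore pick up granulocytic as well as monocytic cells. The cells came from BALB/c mice, 6 to 8 weeks old by the labels, that carried either parental 4T1 mammary carcinoma (4T1P, labelled non-responding to anti-PD1) or a clone of the same line made by mutagenesis (4T1M, labelled responding). The labels name no treatment for either group. GR1+ cells were taken with magnetic beads from pooled mice of each condition (5 by the series' design text, a number on which the sources differ) and made into 1 droplet library each. With 1 library per condition no spread between mice can be estimated, no test was run, and every interval given is a 95% interval for counting error only.

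The libraries held 2947 (4T1P) and 5004 (4T1M) barcodes with 21855657 and 24303957 UMIs, and 1726 and 3461 of them had 500 to 5000 genes and at most 10% mitochondrial UMIs (unique molecular identifiers, which count captured transcripts). Neutrophils were the barcodes with at least 1.5% of UMIs from S100a8 and S100a9 and under 0.5% from C1qa, C1qb, C1qc and Apoe, which gave 612 cells in 4T1P and 1686 in 4T1M. Macrophages had under 1.5% from the S100 pair and at least 0.3% from the C1q genes, Apoe, Csf1r, Cd68 and Fn1, which gave 798 and 976 cells. Both labels held against markers that the rule did not use, since Csf3r, Cxcr2, Retnlg, Mmp9, Hdc, G0s2 and Ly6g summed to 15942 and 13001 CPM (UMIs per 1000000 of the class and library) in neutrophils but to 173 and 231 CPM in macrophages. Median depth was 3054.5 and 2957.5 UMIs per neutrophil and 9727 and 9213.5 per macrophage, and the libraries shared 3 kept barcodes. All levels below are CPM of the UMIs summed over a class in 1 library, without a correction for transcript length.

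These receptors sit on myeloid cells and read out microbial glycolipids, sugars and material from dying cells. Clec4e (Mincle) and its partner Clec4d (MCL) bind glycolipids, and Clec4n (Dectin-2) binds mannans; all signal through the adaptor Fcer1g. Trem1, an amplifier of inflammatory signals, and Clec5a (MDL-1) couple to the adaptor Tyrobp (DAP12). The adaptors recruit the kinase Syk, which feeds Card9, Bcl10 and Malt1 toward NF-kB. Clec4a2 (DCIR) stands apart as an inhibitory receptor that recruits phosphatases such as Ptpn6. Clec7a (Dectin-1) binds beta-glucan.

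In GRCm38 as annotated by GENCODE M21, Clec4a2, Clec4n, Clec4d and Clec4e are protein-coding genes in 1 stretch of chromosome 6, from 123106428 to 123289870, which spans 183 kb and holds only Clec4b2 as a further protein-coding gene. Clec4d (plus strand, 123262111 to 123275265) and Clec4e (minus strand, 123281789 to 123289870) are neighbors that converge, 6.52 kb apart. Clec4n lies at 123229843 to 123247021 and Clec4a2 at 123106428 to 123143999, both on the plus strand. Clec5a lies far from them on chromosome 6, at 40574894 to 40585821 on the minus strand, and Trem1 on chromosome 17, at 48232768 to 48246924 on the plus strand.

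The 250 bases before the RefSeq start (GRCm38.p6) are printed for the 3 members that were highest in neutrophils and for Clec5a, whose level differed least between the classes in 4T1M. Capitals mark GAGGAA on either strand, the core bound by PU.1, the factor that drives myeloid genes. The intervals are chr6:123261857-123262106 (plus), chr6:123289872-123290121 (minus), chr17:48232489-48232738 (plus) and chr6:40585806-40586055 (minus), in the order printed, and each reads 5′ to 3′ on the strand of its gene.
Clec4d: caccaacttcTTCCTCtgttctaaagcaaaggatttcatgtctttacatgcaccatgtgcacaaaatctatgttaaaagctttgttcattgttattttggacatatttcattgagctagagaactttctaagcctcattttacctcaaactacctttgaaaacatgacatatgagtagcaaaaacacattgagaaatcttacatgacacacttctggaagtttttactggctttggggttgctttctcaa
Clec4e: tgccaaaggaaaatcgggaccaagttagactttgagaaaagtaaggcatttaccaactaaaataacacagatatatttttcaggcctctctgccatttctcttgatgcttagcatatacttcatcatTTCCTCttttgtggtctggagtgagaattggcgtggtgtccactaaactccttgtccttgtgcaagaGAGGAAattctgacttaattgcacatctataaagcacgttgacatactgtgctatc
Trem1: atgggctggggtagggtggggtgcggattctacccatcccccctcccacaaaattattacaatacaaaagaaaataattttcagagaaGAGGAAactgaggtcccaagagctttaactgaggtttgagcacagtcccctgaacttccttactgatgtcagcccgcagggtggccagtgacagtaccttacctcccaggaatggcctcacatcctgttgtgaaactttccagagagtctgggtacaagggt
Clec5a: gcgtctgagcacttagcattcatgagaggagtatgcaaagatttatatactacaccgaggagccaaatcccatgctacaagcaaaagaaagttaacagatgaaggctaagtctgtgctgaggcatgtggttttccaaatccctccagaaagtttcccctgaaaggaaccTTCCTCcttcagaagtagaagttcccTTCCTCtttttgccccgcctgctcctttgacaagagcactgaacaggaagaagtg

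GAGGAA was present in 4 of the 5 member promoters that could be read (Clec4d, Clec4e, Clec5a and Trem1, with Clec4a2 lacking these letters), against 23.3% of 32851 promoters of the same length. The Clec4a2 window, chr6:123122440-123122689 (plus), lies before a RefSeq start inside the GENCODE M21 gene (123106428 to 123143999). The bases before the GENCODE start of Clec4a2 were not searched. The C/EBP letters TTNNGNAA were present in all 5, against 36.8% of promoters, and Clec4d held 3 matches. TGANTCA (AP-1), GAAA followed after any 2 bases by GAAA (interferon response) and GGG followed after any 3 bases by TTCC (NF-kB) were in none of the 5, against 6.75%, 2.98% and 4.65% of promoters. Both strands were searched, and no match to one motif overlapped a match to another. A match describes letters in this window and not a bound site.

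The receptors split between the classes. Clec4e, Clec4d and Trem1 were several-fold higher in neutrophils, Clec4n was higher in macrophages, and Clec5a and Clec4a2 were modestly higher in macrophages. Clec4e reached 3008 CPM in 4T1P neutrophils and 3745 in 4T1M neutrophils, against 347 and 448 CPM in macrophages, which was 8.68-fold and 8.35-fold more in neutrophils. Clec4d stood at 1094 and 1209 CPM in neutrophils and at 178 and 184 CPM in macrophages, a 6.15-fold and 6.56-fold difference. Trem1 stood at 836 and 919 CPM against 94.0 and 105 CPM, an 8.89-fold and 8.74-fold difference. For each of these 3 genes the neutrophil level lay above the macrophage level in both libraries.

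Clec4n ran the other way, at 67.1 and 132 CPM in neutrophils and 445 and 336 CPM in macrophages, so that macrophages were 6.63-fold higher in 4T1P and 2.56-fold higher in 4T1M. Clec5a stood at 81.1 and 128 CPM in neutrophils and 157 and 149 CPM in macrophages. The inhibitory receptor Clec4a2 was low in both classes, at 67.9 and 60.9 CPM in neutrophils and 109 and 92.4 CPM in macrophages. Macrophages were thus 1.93-fold and 1.17-fold higher for Clec5a and 1.60-fold and 1.52-fold higher for Clec4a2, under the 2-fold limit used for a call. Of the 6 members, 3 were 2-fold or more higher in neutrophils in both libraries, against 8.56% of the 7327 genes of at least 100 UMIs, and 1 was 2-fold or more higher in macrophages, against 46.2% of those genes. These counts were also 3 and 1 with a stricter class rule, with cells thinned to equal depth, and without the clusters that carried markers of the other class.

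**Figure D1:**
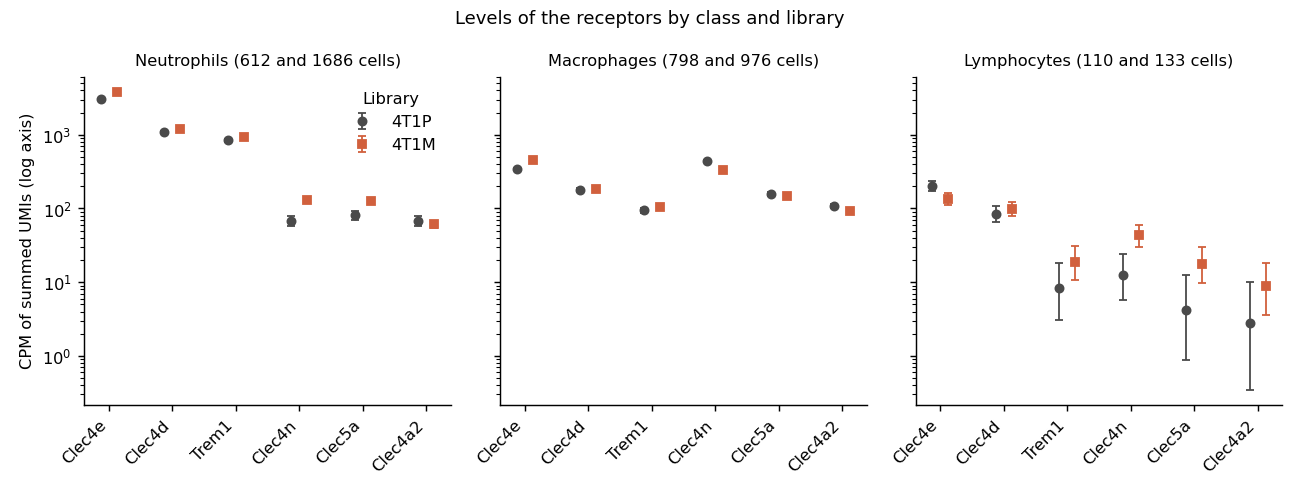
CPM of the summed UMIs (log axis) of the 6 receptors in neutrophils, macrophages and lymphocytes, for 4T1P (circles) and 4T1M (squares); bars are 95% Poisson intervals. Clec4e, Clec4d and Trem1 lie highest in neutrophils, where Clec4e reaches 3008 and 3745 CPM, while Clec4n lies highest in macrophages at 445 and 336 CPM.

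The same split was seen in shares of cells. After each cell was thinned to 1000 UMIs, a Clec4e UMI was found in 82.8% of 4T1P and 86.1% of 4T1M neutrophils. The share was 21.4% and 25.9% in macrophages and 6.36% and 6.82% in lymphocytes (110 and 132 cells thinned, 1 shallower cell of 4T1M left out, median 5212 and 5662 UMIs before thinning). The lymphocytes served as a comparison, and whether they lack each of these receptors was not tested. Clec4d was found in 65.8% and 66.5% of neutrophils against 13.3% and 13.5% of macrophages, and Trem1 in 51.1% and 54.9% against 7.12% and 8.41%. In lymphocytes these shares were 2.73% and 5.30% for Clec4d and 0.909% and 2.27% for Trem1. Clec4e and Clec4d were thus detected in most neutrophils even at this shallow depth. The interval of the Trem1 share in 4T1P neutrophils was 47.1% to 55.2%.

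Clec4n, Clec5a and Clec4a2 were detected in a minority of neutrophils. The thinned shares were 5.23% and 11.6% for Clec4n, 6.86% and 10.2% for Clec5a and 5.23% and 3.69% for Clec4a2. In macrophages they were 29.8% and 24.4% for Clec4n, 11.9% and 14.0% for Clec5a and 11.0% and 10.6% for Clec4a2. In lymphocytes, Clec4n was found in 0 of 110 thinned 4T1P cells, which allows a share with a UMI of up to 2.73% (3 cells of the total; the exact interval reaches 3.30%), and in 3.79% of 4T1M cells, and Clec5a and Clec4a2 were each found in 0.909% and 1.52%. In each library every neutrophil share lay above the lymphocyte share of the same gene, but for Clec4a2 the intervals overlapped in both libraries. In 4T1P they were 3.60% to 7.30% for neutrophils and 0.0230% to 4.96% for lymphocytes. In 4T1M they were 2.84% to 4.70% and 0.184% to 5.37%. At full depth the shares of neutrophils were 94.4% and 95.6% for Clec4e, 90.5% and 90.7% for Clec4d, 79.2% and 80.8% for Trem1, 16.2% and 24.9% for Clec4n, 19.9% and 28.7% for Clec5a and 16.8% and 14.4% for Clec4a2.

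Free RNA from lysed cells carries UMIs into other barcodes, so the level it would bring was computed from a gene of 1 class found in the other. At the S100a8 level of macrophages (237 and 465 CPM), neutrophil RNA would carry 10.8 and 31.1 CPM of Clec4e, or 3.11% and 6.93% of what was measured in macrophages, and 2.20% and 5.44% of Clec4d. At the Apoe level of neutrophils (219 and 270 CPM), macrophage RNA would carry 11.7 and 10.1 CPM of Clec4n into neutrophils, or 17.4% and 7.67% of its level there. Each estimate rests on 1 carrier gene, and the part of free RNA in the differences between the libraries was not tested. Both carriers are also genes of the class rule, which limits their level in the other class and with it the estimate. In lymphocytes, Clec4e stood at 203 and 136 CPM and its UMIs lay in 11 of 110 and 26 of 133 cells, with up to 47 in 1 cell. By the S100a8 estimate neutrophil RNA would carry 4.21% and 9.31% of that Clec4e, and the source of the rest was not tested.

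The comparison of 4T1M with 4T1P asks whether the receptors differ between the tumor labelled responding and the one labelled non-responding. In neutrophils, Clec4n and Clec5a were higher in 4T1M by more than 1.5-fold, and the abundant receptors Clec4e, Clec4d and Trem1 differed little. Clec4n, the mannan receptor, had a log2 ratio of 4T1M over 4T1P of 0.97 (interval 0.73 to 1.22), from 168 and 866 UMIs. Clec5a had a log2 ratio of 0.66 (0.43 to 0.88), from 203 and 841 UMIs. Of the 6 members 2 were past 1.5-fold higher and 0 past 1.5-fold lower, against 7.51% of 4953 genes higher and 1.8% lower, and the median over all of those genes was 0.04 on the log2 scale. The Clec5a call ended with a mitochondrial limit of 5% (log2 ratio 0.58) and with the neutrophil class widened by the other kept barcodes (0.55), and it was uneven over depth, with a log2 ratio of 1.65 in neutrophils under the median depth and 0.43 in those at or above it. Clec4n kept its call in all 9 alternatives, at 0.69 to 1.23.

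The log2 ratio in neutrophils was 0.32 (0.28 to 0.35) for Clec4e, 0.14 (0.08 to 0.21) for Clec4d and 0.14 (0.07 to 0.21) for Trem1. These lay under the 1.5-fold limit, and the Clec4d ratio was -0.04 with cells thinned to equal depth and -0.0044 when cells were averaged. Clec4a2 had a log2 ratio of -0.16 (-0.42 to 0.11), an interval that includes no difference.

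In macrophages as a whole no member passed 1.5-fold in either direction, against 3.29% of 8571 genes higher and 2.93% lower. Clec4n was lower in 4T1M, with a log2 ratio of -0.40 (-0.47 to -0.33), the reverse of its direction in neutrophils. This sign was the same in all 8 alternatives (-0.43 to -0.33). Clec4a2 had a log2 ratio of -0.24 (-0.37 to -0.10), Clec5a -0.07 (-0.18 to 0.04) and Clec4d 0.05 (-0.05 to 0.15). Clec4e had a log2 ratio of 0.37 (0.30 to 0.44) and Trem1 0.16 (0.03 to 0.30). Both were uneven over depth and past 1.5-fold in macrophages under the median depth, where the log2 ratio was 0.93 (0.76 to 1.09) for Clec4e and 0.80 (0.43 to 1.18) for Trem1, against 0.23 (0.15 to 0.30) and 0.06 (-0.09 to 0.21) in those at or above it. The Clec5a ratio was 0.20 with cells thinned to 1000 UMIs, with the sign turned.

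The macrophage ratio of Clec4e moved with a cluster that carried neutrophil markers. Macrophage cluster M5, led by G0s2, Hdc, S100a9 and S100a8, held 12 cells in 4T1P and 69 in 4T1M, and its Clec4e level was 628 and 1418 CPM. Without M5 and a small neutrophil cluster led by macrophage genes, the macrophage log2 ratio was 0.13 for Clec4e, 0.02 for Trem1 and -0.07 for Clec4d. With the stricter class rule it was 0.07 for Clec4e, 0.01 for Trem1 and -0.22 for Clec4d. Averaging over cells in place of pooling UMIs gave 0.63 for Clec4e, past the 1.5-fold limit.

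**Figure D2:**
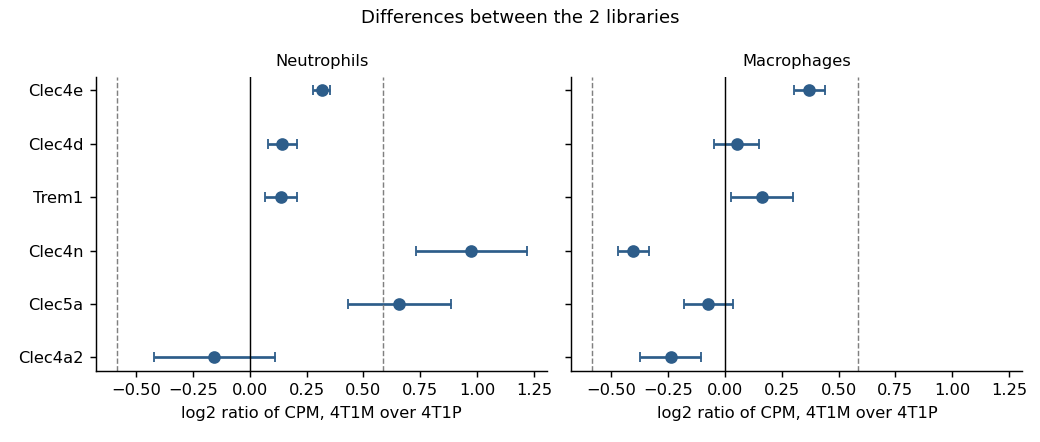
Log2 ratio of CPM, 4T1M over 4T1P, of each receptor in neutrophils (left) and macrophages (right), with exact 95% intervals; dashed lines mark 1.5-fold. Clec4n lies at 0.97 in neutrophils and -0.40 in macrophages, and Clec4n and Clec5a in neutrophils are the only points past a dashed line.

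The adaptors and the kinase Syk were present in both classes at similar levels in the 2 libraries. Fcer1g, the adaptor of Clec4d, Clec4e and Clec4n, stood at 2326 and 2427 CPM in neutrophils and 1712 and 1814 CPM in macrophages. Tyrobp, the adaptor of Trem1 and Clec5a, stood at 2021 and 2106 CPM in neutrophils and 1460 and 1447 CPM in macrophages. The kinase Syk was higher in neutrophils (320 and 347 CPM) than in macrophages (157 and 174 CPM), by 2.04-fold and 1.99-fold. Card9, which couples Syk to Bcl10 and Malt1, was low in neutrophils (12.8 and 7.60 CPM, from 32 and 50 UMIs, a log2 ratio of -0.75 with an interval of -1.42 to -0.06, under the 100 UMIs needed for a call) and in macrophages (11.9 and 13.3 CPM).

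Among 16 adaptors and kinases, 14 had enough UMIs in neutrophils, and only the protease Malt1 passed 1.5-fold, with 277 CPM in 4T1P and 626 CPM in 4T1M (log2 ratio 1.18, interval 1.06 to 1.30). This count of 1 in 14 is near the 7.51% of all genes past the limit in that direction. All 16 were within 1.5-fold in macrophages, where 3.29% of all genes were past it higher and 2.93% lower. None of the phosphatases and ligases that restrain the pathway passed this limit, among 4 tested in neutrophils and 5 in macrophages. In neutrophils 1.8% of all genes were past the limit lower. At such shares lists this short would hold few or no genes past it. The median log2 ratio in neutrophils was 0.08 over the adaptors and kinases and 0.18 over the inhibitors, beside 0.04 over all genes.

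Of 13 cytokines and other products of this pathway, 10 could be tested in neutrophils and 6 were past 1.5-fold higher in 4T1M with 0 lower, against 7.51% of all genes. They were Tnf (292 and 693 CPM), Il1a (644 and 1620 CPM), Il23a (43.1 and 97.0 CPM), Cxcl1 (386 and 618 CPM), Ccl3 (4715 and 7310 CPM) and Ccl4 (1732 and 3007 CPM). These are inflammatory cytokines and chemokines that many other inputs also induce. The list was chosen with earlier results of these data known, and the study itself singles out Tnf, Il1a, Il23a and Il12b in neutrophils of these tumors, so the count is a description and not independent evidence of a direction. Il12b had 0 UMIs in the neutrophils of either library here, so its level in them could not be compared. In macrophages 3 of 13 were past it, all higher in 4T1M, against 3.29% of genes: Il23a (log2 ratio 0.69), Il12b (1.24) and Ccl3 (0.75).

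Relatives of the members were mostly scarce. Of 18 other C-type lectins, 6 had at least 100 UMIs in neutrophils, and Clec4a3 (12.8 and 21.4 CPM) and the scavenger receptor Olr1 (32.0 and 52.4 CPM) were past 1.5-fold higher in 4T1M with 0 lower, beside 7.51% of all genes higher and 1.8% lower. In macrophages 9 were tested, beside 3.29% of all genes higher and 2.93% lower, with Clec12a (log2 ratio 0.67), Clec1a (0.67) and Clec2d (0.94) higher and Clec4a1 lower, at 41.7 CPM in 4T1P and 27.4 CPM in 4T1M. Of the TREM family, Treml4 alone passed the limit in neutrophils (25.2 and 40.0 CPM, among 3 tested), and none of 4 did in macrophages. Of the ligand genes, Pglyrp1, which encodes a peptidoglycan-binding ligand of TREM1, had a log2 ratio of -0.43 in neutrophils, and neither of the 2 tested ligands passed the limit in either class.

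Within neutrophils the receptors varied along different gene lists. Cells of each library were ordered by the share of UMIs from a list of 11 granule genes made early in maturation (Camp, Ltf, Ngp and others) and cut into 4 equal parts. No UMI of this list was found in 25.5% of 4T1P and 27.3% of 4T1M neutrophils. The lowest granule quartile thus held only such cells, and the rest of them fell in the next quartile by their order in the data. Clec4n was lower in granule-rich cells, at 112 CPM in the lowest and 22.1 CPM in the highest quartile of 4T1P and at 229 and 50.6 CPM in 4T1M. Clec4e was also lower in the highest granule quartile, at 4069 against 1824 CPM in 4T1P and 4795 against 2797 CPM in 4T1M. Clec4d was 1561 against 679 CPM in 4T1P and 1294 against 943 CPM in 4T1M. Trem1 differed less, at 952 against 725 CPM and 907 against 881 CPM.

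The inhibitory receptor Clec4a2 had the opposite gradient. Its level was 32.4 CPM in the lowest and 103 CPM in the highest granule quartile of 4T1P, and 33.5 and 103 CPM in 4T1M, which was 3.19-fold and 3.07-fold higher in granule-rich cells. Clec5a was 64.8 and 95.3 CPM in 4T1P and 119 and 125 CPM in 4T1M, with intervals of the ratio that include no difference. Median depth was also higher in the highest granule quartile, at 4306 UMIs against 2521 in 4T1P and 4160 against 2260.5 in 4T1M.

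Ordering neutrophils by 10 NF-kB response genes such as Nfkbia and Tnfaip3 gave the steepest gradient of Clec4e. Its level went from 1151 through 2598 and 3590 to 5334 CPM over the 4 quartiles of 4T1P, and from 1778 through 3479 and 4752 to 5348 CPM in 4T1M. The top quartiles of the 2 libraries were thus alike, with a log2 ratio of 0.00 (-0.06 to 0.07), while the bottom quartiles differed by 0.63 (0.51 to 0.75). Clec4d (704 to 1377 CPM and 827 to 1252 CPM) and Trem1 (476 to 898 CPM and 735 to 947 CPM) were higher in the top than in the bottom quartile. Clec4a2 was lower there, at 113 against 43.4 CPM in 4T1P and 96.9 against 25.7 CPM in 4T1M.

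The higher Clec4n of 4T1M neutrophils was uneven along this order. Its level in 4T1P was 48.7, 44.1, 51.3 and 144 CPM from the lowest to the highest NF-kB quartile, and 68.1, 97.0, 203 and 175 CPM in 4T1M. The log2 ratio between the libraries was 1.99 (1.44 to 2.59) in the third quartile and 0.28 (-0.10 to 0.68) in the highest. The quartiles were cut within each library, and the list made up 0.679% of UMIs in the median 4T1P neutrophil and 1.03% in the median 4T1M neutrophil, so the same quartile does not hold the same range.

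By 12 interferon-stimulated genes, Clec4n in 4T1P was 43.1 CPM in the lowest and 116 CPM in the highest quartile, and 108 and 142 CPM in 4T1M. No UMI of this list was found in 20.8% of 4T1P and 12.3% of 4T1M neutrophils. The list made up 0.0804% and 0.165% of UMIs in the median neutrophil, so here too the same quartile does not hold the same range. Clec4e, Clec4d and Trem1 were 1.25-fold to 1.62-fold higher in the highest than in the lowest interferon quartile over both libraries. Clec4a2 was lower in the highest quartile of 4T1M (29.3 against 95.6 CPM), and in 4T1P it was 60.0 against 90.2 CPM with an interval that includes no difference. Clec5a did not follow this list, at 92.9 against 79.4 CPM and 135 against 135 CPM.

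**Figure D3:**
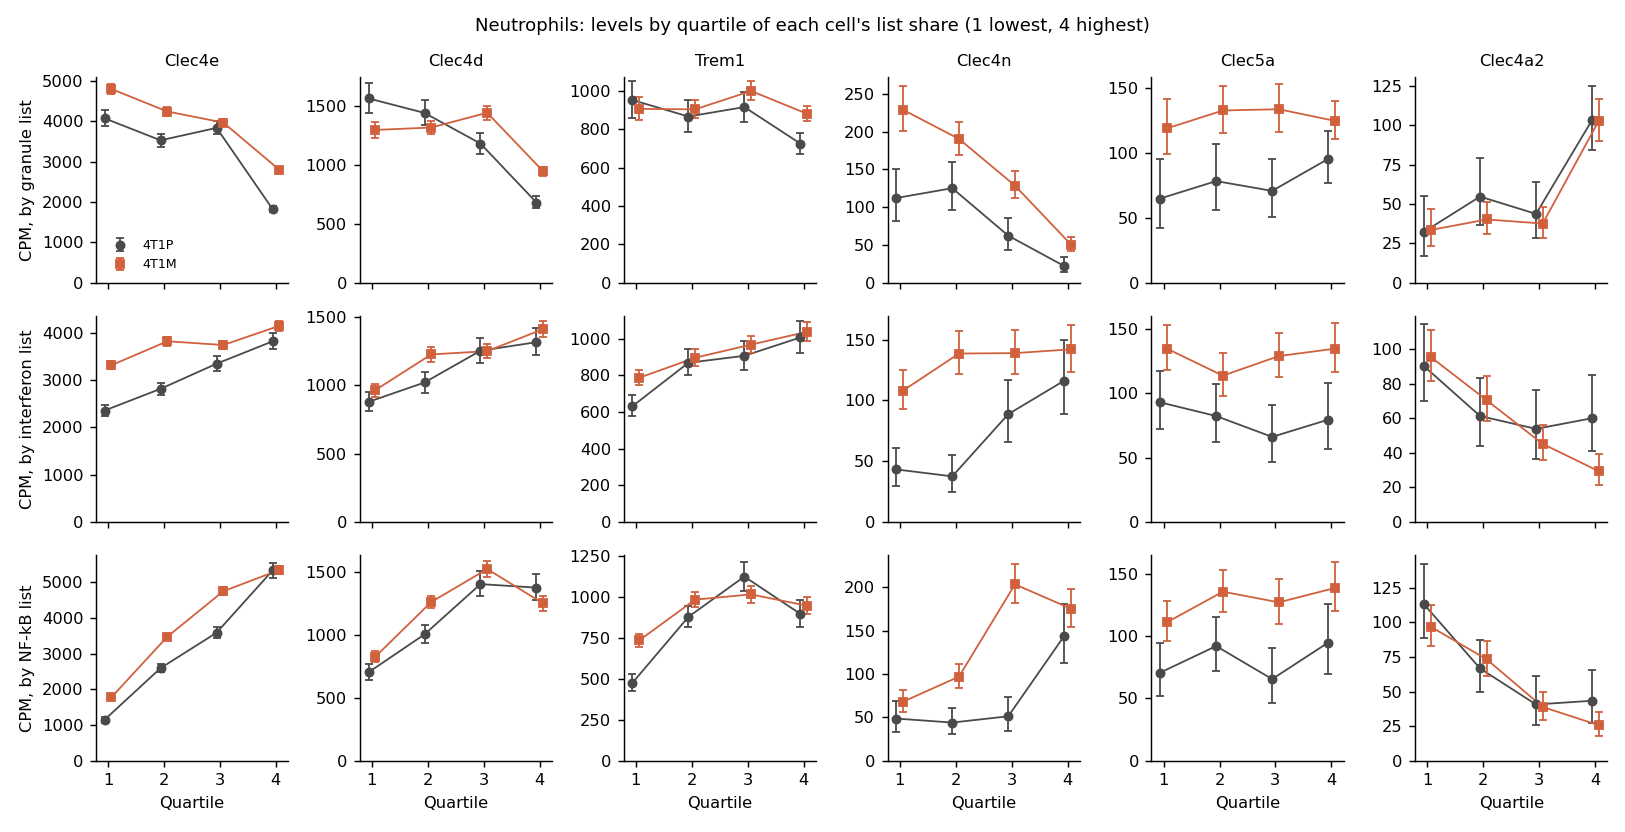
CPM of each receptor (columns) by quartile of a neutrophil's share of UMIs from the granule, interferon and NF-kB lists (rows), for 4T1P (circles) and 4T1M (squares), with 95% Poisson intervals. Clec4e is higher with each NF-kB quartile, from 1151 to 5334 CPM in 4T1P, Clec4n is lower in the top granule quartile, and Clec4a2 runs against both.

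Clustering of the classes without the members among the features gave neutrophil clusters N1 to N6 and macrophage clusters M1 to M7, named here by number only. In N4, led by the granule genes Camp, Ngp and Ltf (53 and 166 cells), Clec4a2 had its highest neutrophil level, at 133 and 150 CPM, and Clec4n its lowest, at 14.4 and 24.1 CPM. N2 (89 and 484 cells) was led by the hemoglobin genes Hbb-bs, Hba-a1 and Hba-a2 together with Ifit2, Cxcl10, Gbp5 and others. In N2, Clec4n reached 147 and 233 CPM, Clec5a 121 and 180 CPM and Clec4e 4951 and 4772 CPM. N2 made up 14.5% of neutrophils in 4T1P and 28.7% in 4T1M. Clec4n was also higher in 4T1M within N1 (79.1 and 120 CPM), N3 (84.6 and 118 CPM) and N4, with overlapping intervals in each. In N5 it stood at 32.4 and 33.0 CPM. In N6, the small cluster led by macrophage genes (16 and 46 cells), Clec4n was 21.2 CPM (interval 4.37 to 61.9, from 3 UMIs) in 4T1P and 161 CPM (126 to 202, from 73 UMIs) in 4T1M, and without N6 and M5 the log2 ratio of Clec4n over all neutrophils was 0.89.

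Among macrophages, Clec4e, Clec4d and Trem1 were highest in M2 and M5. M2 (230 and 268 cells) was led by Inhba, Cxcl3, Thbs1, Mmp12 and others, among them the hemoglobin genes Hbb-bs, Hba-a1 and Hba-a2. It held Clec4e at 603 and 662 CPM, Clec4d at 266 and 318 CPM and Trem1 at 147 and 127 CPM. M3, led by Vcam1, Cx3cr1 and Cxcl9 (115 and 265 cells), held Clec4e at 152 and 207 CPM, Clec4d at 61.2 and 72.7 CPM and Trem1 at 54.4 and 77.6 CPM. Clec4n varied less over these cells, from 253 to 519 CPM in 4T1P and from 262 to 406 CPM in 4T1M over M1 to M6. It was lower in 4T1M in 5 of these 6 clusters, with overlapping intervals in M1, M4 and M6, and stood at 253 and 262 CPM in M5.

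**Figure D4:**
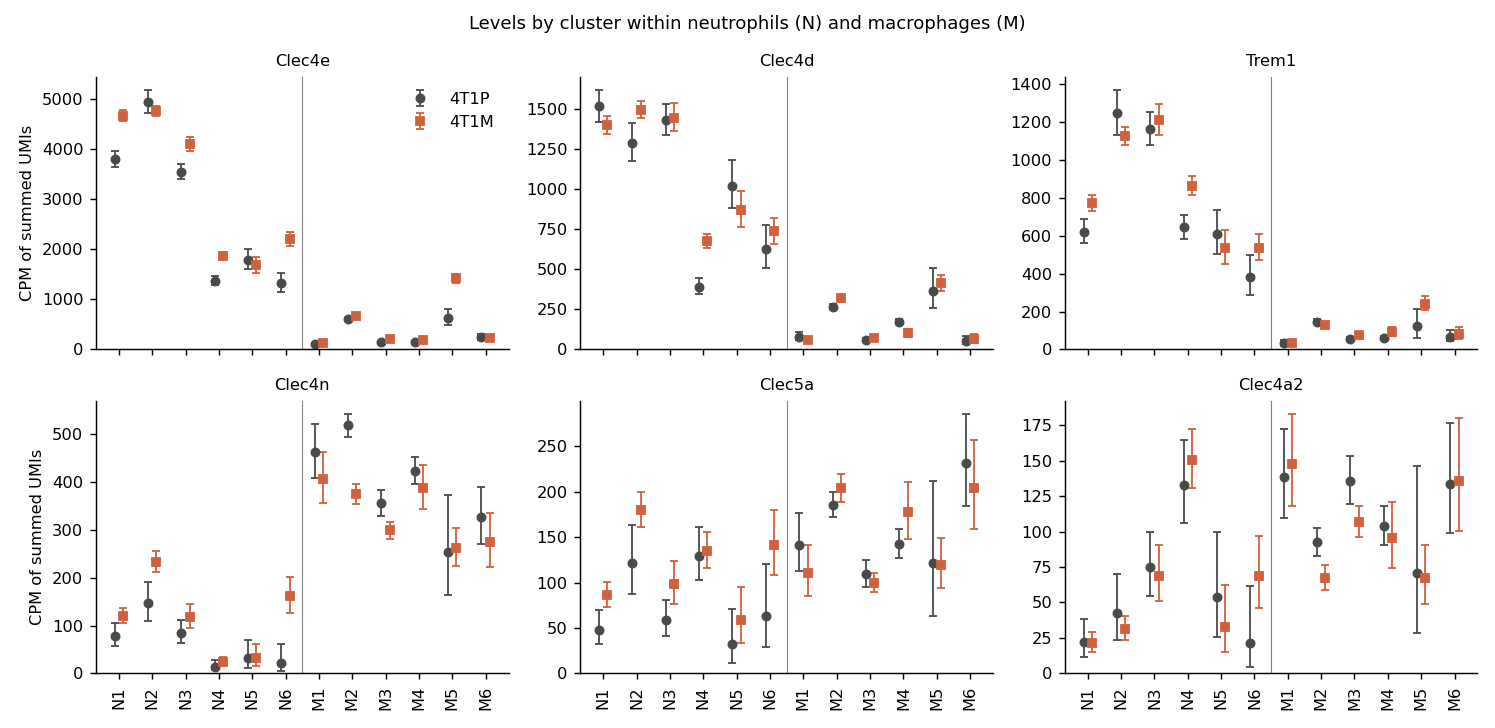
CPM of each receptor in neutrophil clusters N1 to N6 and macrophage clusters M1 to M6 (M7, with 11 cells, is left out), for 4T1P (circles) and 4T1M (squares), with 95% Poisson intervals. Clec4e, Clec4d and Trem1 lie higher in every N cluster than in M1 to M4 and M6, and Clec4a2 peaks in N4 among neutrophils, at 133 and 150 CPM.

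Macrophages were ordered in the same way by 7 MHC class II genes, 7 monocyte genes and 7 genes of resident-like macrophages. Clec4d had the steepest gradient over the MHC class II list, from 318 CPM in the lowest to 87.4 CPM in the highest quartile of 4T1P and from 362 to 79.7 CPM in 4T1M. Clec4e was 405 against 223 CPM and 726 against 283 CPM. The Clec4n values lay closer together, at 441 against 462 CPM and 300 against 356 CPM.

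Trem1, Clec5a and Clec4e were higher in cells rich in the monocyte list (Ly6c2, Ccr2, Fn1 and others). Fn1, also a gene of the class rule, stood at 3524.5 and 2286 CPM in macrophages, and its weight in this order was not tested. From the lowest to the highest quartile, Trem1 went from 43.7 to 134 CPM in 4T1P and from 65.6 to 159 CPM in 4T1M, Clec5a from 98.3 to 208 CPM and from 84.5 to 220 CPM, and Clec4e from 245 to 488 CPM and from 339 to 646 CPM. Over the resident-like list (Lyve1, Folr2, Cd163 and others) the order turned, and Clec5a was 253 CPM in the lowest and 88.4 CPM in the highest quartile of 4T1P, with a log2 ratio of highest over lowest of -1.52 there and -1.19 in 4T1M. Depth moved with these lists, since the lowest monocyte quartile had a median of 2791.5 and 2963.5 UMIs against 14483 and 11569.5 in the highest, and its part in the gradients was not tested. Over the interferon list Clec4d was 233 against 120 CPM in 4T1P and 237 against 140 CPM in 4T1M, so it was lower in interferon-high macrophages and higher in interferon-high neutrophils.

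**Figure D5:**
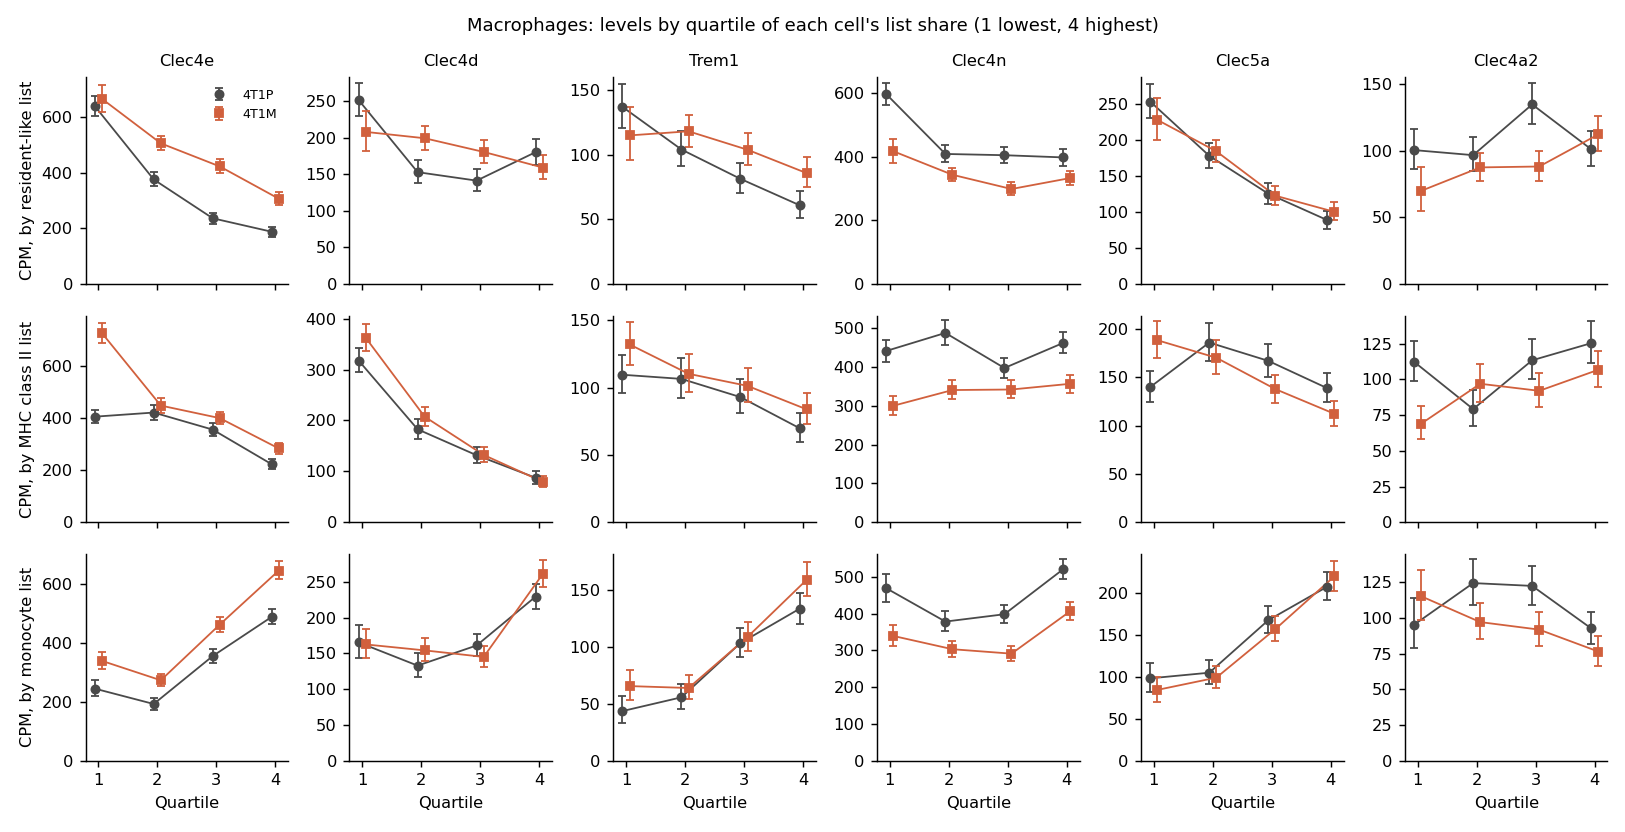
CPM of each receptor (columns) by quartile of a macrophage's share of UMIs from the resident-like, MHC class II and monocyte lists (rows), for 4T1P (circles) and 4T1M (squares), with 95% Poisson intervals. Clec4d is lower with each MHC class II quartile, from 318 to 87.4 CPM in 4T1P, and Trem1 and Clec5a are highest in the top monocyte quartile.

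Likeness between genes was described by Pearson's r of log2(CPM + 10) over 20 units, each 1 cluster of at least 30 cells in 1 library. Units of a library share its depth and handling, and the 2 classes form separate groups, so r mostly reflects the contrast of neutrophils with macrophages. Clec4e followed Clec4d (r = 0.97) and Trem1 (0.97) and ran against Clec4n (-0.61). Over the 11 neutrophil units alone r of Clec4e was 0.87 with Clec4d, 0.84 with Clec4n and 0.69 with Trem1, and over the 9 macrophage units it was 0.90, -0.38 and 0.95. The 3 genes most like each member over all 20 units were Srgn, Iqsec1 and Sgms2 for Clec4d (0.98 each), Gadd45a, Resf1 and Iqsec1 for Clec4e (0.98), and Cdc42ep2, Slc16a3 and 6530402F18Rik for Trem1 (0.97 to 0.98). They were Pbdc1, Trnau1ap and Cnbp for Clec4n (0.95), Arpc1b, Rsu1 and Scp2 for Clec4a2 (0.92 to 0.95) and Tmem203, Ccdc86 and 2610002M06Rik for Clec5a (0.82 to 0.83). Across single cells of at least 1000 UMIs, r was at most 0.22 between any 2 members in a class and library. Counts per cell were sparse for several members, with a median of 0 Clec4n UMIs per neutrophil in both libraries. Sparse counts hold r down, so these values do not show how closely the members go together within a cell.

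A further 195 barcodes of 4T1P and 613 of 4T1M fell in no class, since their S100a8 and S100a9 share was under 1.5% and they were neither macrophages nor lymphocytes by rule. They carried Clec4e at 2144 and 3500 CPM, Clec4d at 624 and 924 CPM and Trem1 at 286 and 429 CPM, and neutrophil markers other than the S100 pair at 2466 and 2973 CPM. G0s2 made up 1466 and 1462 CPM of that sum, and Ly6g was 10.7 and 13.4 CPM, against 308 and 230 CPM in neutrophils. The 11 macrophage markers summed to 1716 and 1278 CPM, against 683 and 776 CPM in neutrophils. The 6 tumor and stromal markers summed to 254 and 320 CPM, against 90.7 and 43.8 CPM in neutrophils. The cell types among these barcodes were not tested. Widening the neutrophil class by these barcodes gave log2 ratios of 0.40 for Clec4e, 0.22 for Clec4d and 0.69 for Clec4n between the libraries.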

How the data were processed

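The authors aligned reads to mm10 (GRCm38) with Cell Ranger (4.0.0 in the submitters' processing notes and file headers; the paper's methods name a later version) and deposited unnormalized UMI counts for every gene in each barcode. CPM is a gene's UMIs per 1000000 of the class and library. Kept barcodes had 500 to 5000 genes and at most 10% mitochondrial UMIs, the limits of the study's methods. UMIs were summed per class and library. Levels have exact Poisson intervals, shares exact Clopper-Pearson intervals, and log2 ratios exact conditional intervals, all at 95%. A gene was called at 1.5-fold between libraries (at least 100 UMIs over both) or at 2-fold between classes in both libraries. All 7 members were to be named, with list genes past 1.5-fold, Fcer1g, Tyrobp, Syk, Card9 and the 3 genes most like each member. The members and lists were chosen with earlier results of these data known. Lymphocytes were barcodes in neither class with at least 3 UMIs and 0.1% of UMIs from lymphocyte markers.

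Classes were clustered with scanpy 1.11.5 and leidenalg 0.10.2 (2000 variable genes, 25 components, 20 neighbors, resolution 0.5). Doublets were left in; Scrublet called 1 and 0 barcodes by itself, so the 69 and 200 of highest score were left out in an alternative. edgeR 4.0.16 and DESeq2 1.42.0 (R 4.3.3) gave alternative scaling factors and no test. Python 3.11.15 and scipy 1.17.1 were used. On simulated neutrophil sums of 4953 genes, 94.8% of intervals covered the true ratio, and 197 of 200 genes changed 2-fold passed the 1.5-fold limit. On macrophage sums of 8571 genes these were 95.3% and 198 of 200. The simulated sums were Poisson counts, the model that the intervals assume, so this checks the calculation only. It does not cover UMIs concentrated in few cells or spread between mice. In neutrophils, the tenth of cells richest in Clec4n held 78.0% (4T1P) and 70.2% (4T1M) of its UMIs.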

Additional observations from a re-analysis of the deposited data

Results flagged for a closer look

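Clec4n differed between the libraries in opposite directions in the 2 classes. Its log2 ratio of 4T1M over 4T1P was 0.97 in neutrophils and -0.40 in macrophages. With 1 library per condition the difference between the classes was not tested.

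The receptors were also measured in barcodes that the filters left out, which enter no comparison above. The 6 members summed to 1018 CPM in the 1221 left-out barcodes of 4T1P and to 1836 CPM in the 1543 of 4T1M. Clec4e alone stood there at 403 and 978 CPM, and Clec4n at 196 and 144 CPM.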

How the results depend on the processing

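No paired analysis was possible because each condition has 1 pooled library, and for the same reason no replicate could be left out. The number of members past 1.5-fold higher in 4T1M neutrophils was 2 and became 1 with a mitochondrial limit of 5% and, in an alternative chosen after seeing the data, 1 with the neutrophil class widened by the other kept barcodes; Clec5a was lost both times. In macrophages it was 0 and became 1 (Clec4e) with the mean over cells and 1 (Clec4e) with cells thinned to 1000 UMIs, where its log2 ratios were 0.63 and 0.61. The other counts of members did not move under the alternatives run for them, including the added one without clusters N6 and M5. Scaling by edgeR or DESeq2 factors shifted ratios by at most 0.05 on the log2 scale. Of 102 alternative ratios of single members, 74 lay inside the counting interval of the ratio reported, 28 outside it. None of the called ratios changed sign, but 5 alternatives turned the sign of a ratio under the limit: Clec4d in neutrophils with the mean over cells and with thinning, Clec4d in macrophages with the stricter class rule (-0.22) and without N6 and M5 (-0.07), and Clec5a in macrophages with thinning (0.20). The numbers of genes past 1.5-fold depended on the UMI minimum. In neutrophils 372 genes were higher and 89 lower; with at least 10 UMIs these were 1426 and 992, and with a UMI in both libraries 1543 and 2503. In macrophages 282 and 251 became 910 and 979, and then 1543 and 1632. Shares of cells depended on depth, and all 24 were higher without thinning. Depth limits Clec4n, Clec5a and Clec4a2 most, at 168 to 203 UMIs each in 4T1P neutrophils.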
